A study of Equus caballus with 10 samples.

Results

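The genes described here were the antigen processing and immunoproteasome genes of equine tenocytes, a set of 10 genes out of 29196 in the expression table. They were chosen by name and function, and comprised B2M, TAP1, TAP2, TAPBP, PSMB8, PSMB9, PSMB10, NLRC5, CIITA and CD74. Every one of the 10 was found in the table by its symbol, and all 10 were among the 17992 genes that passed the filter on low values and were tested. RNA was sequenced in bulk from tendon cells held in 3D collagen gels for 14 days, with 5 libraries in each of 2 groups. In the PF-06650833 alone group the cells received the IRAK4 inhibitor PF-06650833 at 100 nM daily. In the IL-1β plus PF-06650833 group they received the same inhibitor and, at intervals of 3 to 4 days, the inflammatory cytokine IL-1β at 17 ng/ml. Both groups therefore carried the inhibitor, and the comparison between them measured what IL-1β changed while IRAK4 was inhibited.

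The cells were primary tenocytes of the superficial digital flexor tendon, and the same 5 tenocyte lines, each from 1 horse, gave a library in both groups. They are called donors 1 to 5. Control cells and cells given IL-1β without the inhibitor were not used here, so no value below says how far the inhibitor itself moved a gene. Values were variance-stabilized log2 expression, a normalised scale on which 3.43 stands for 0 reads and on which differences between low counts are compressed. Normalised read counts summed to between 34358354 and 38755204 per library. A gene was called when limma, fitted across all tested genes, gave a Benjamini-Hochberg adjusted p below 0.05 together with a log2 fold change of 1 or more in either direction.

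Nucleated cells show fragments of their own proteins on MHC class I molecules, each of which is a heavy chain held with the light chain B2M. The fragments are cut by the proteasome, carried into the endoplasmic reticulum by the TAP1 and TAP2 transporter, and loaded with the help of tapasin, the product of TAPBP. In inflamed tissue the proteasome can be built with the catalytic subunits PSMB8, PSMB9 and PSMB10, which take the places of PSMB5, PSMB6 and PSMB7 to form the immunoproteasome. NLRC5 is the transactivator of class I genes and CIITA that of class II genes, and CD74 is the invariant chain that guides class II molecules to the compartment where they are loaded.

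With IL-1β plus PF-06650833, 5 of the 10 genes rose and none fell, whereas 3.11% of all tested genes were called higher and 3.57% lower. The 5 were CD74, PSMB9, B2M, PSMB10 and TAP1. NLRC5, CIITA, PSMB8, TAP2 and TAPBP did not pass the test, although their mean differences were above 0 as well. The median log2 fold change over the 10 genes was 1.41, with a range of 0.48 to 3.73, and the median of all tested genes was -0.01. The groups did not overlap in those same 5 genes, a pattern that 6.29% of all tested genes showed in this direction. A higher value in each of the 5 donors was seen in 6 of the 10 genes, the 5 called ones and CIITA, against 16.0% of all tested genes. In a fit with the donor as a block, in which 4.01% of all tested genes were called higher, NLRC5 passed too, which made 6 of 10.

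**Figure D1:**
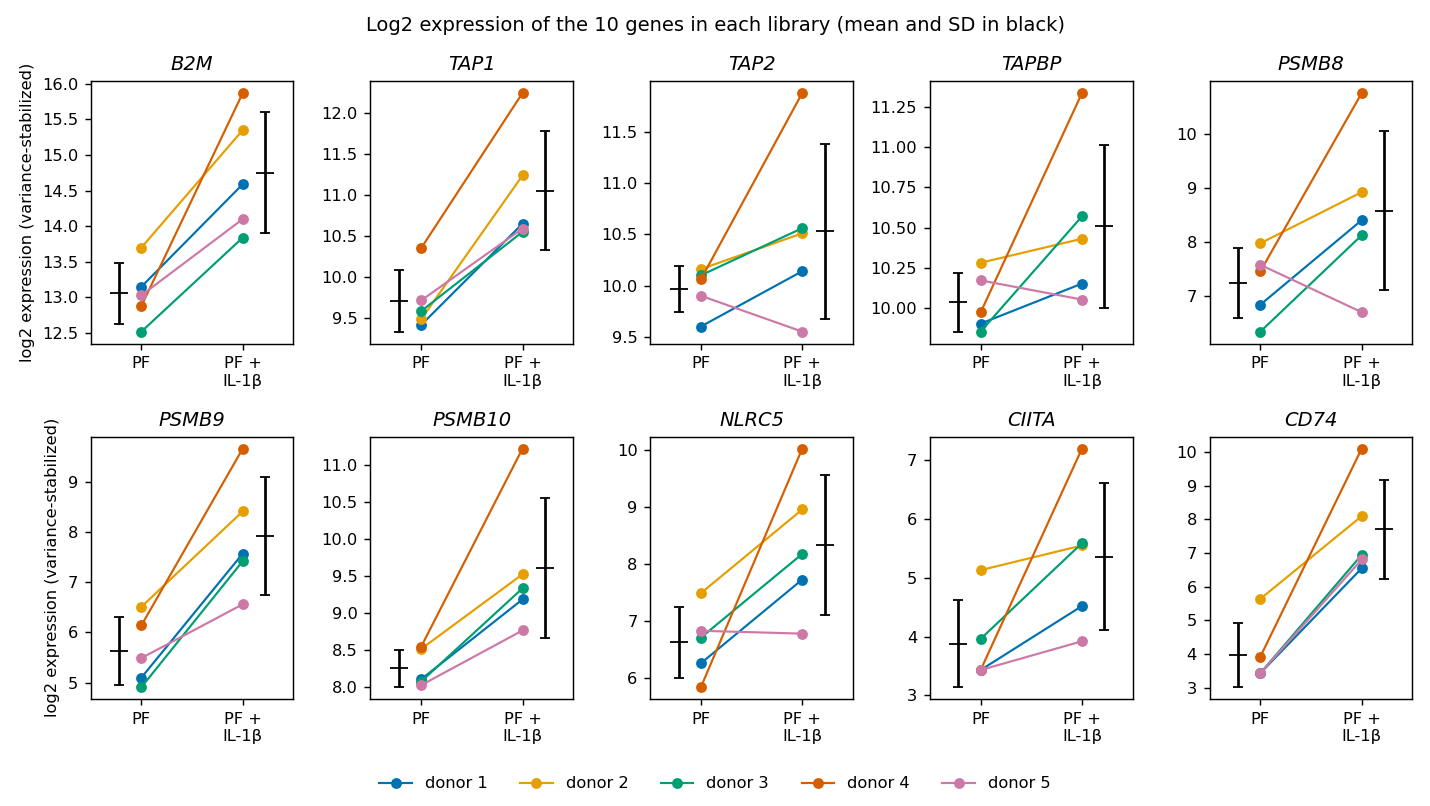
Variance-stabilized log2 expression of the 10 genes in each library, with 1 panel per gene, points for donors 1 to 5 joined within a donor, and bars for the group mean and SD (n = 5 per group). CD74, PSMB9, B2M, PSMB10 and TAP1 have groups that do not overlap, and donor 4 is the highest point with IL-1β plus PF-06650833 in all 10 panels.

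B2M, the light chain shared by class I molecules, stood at 13.15, 13.70, 12.52, 12.88 and 13.03 in donors 1 to 5 with PF-06650833 alone. After addition of IL-1β the same donors had 14.59, 15.35, 13.84, 15.87 and 14.10. The lowest IL-1β library, donor 3, lay above the highest library without IL-1β, donor 2, so the groups did not overlap. The means were 13.05 ± 0.43 and 14.75 ± 0.85 (SD, n = 5 each), a log2 fold change of 1.70 (SE 0.37, limma adjusted p = 0.0111), or 3.24-fold. In normalised read counts, donor 4 moved from 7494 to 59791 and donor 5 from 8340 to 17558. The call for B2M was lost when donor 1 was left out (log2 fold change 1.76, limma adjusted p = 0.054).

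TAP1, one chain of the peptide transporter, had 9.41, 9.48, 9.58, 10.35 and 9.71 in donors 1 to 5 with PF-06650833 alone and 10.65, 11.24, 10.55, 12.25 and 10.59 with IL-1β added. Donor 4 was the highest in both groups, and the groups did not overlap. The log2 fold change was 1.35 (SE 0.32, limma adjusted p = 0.0155). Without donor 1 or without donor 2 the limma adjusted p was 0.0589 and 0.086, with log2 fold changes of 1.38 and 1.25.

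TAP2, the other chain of the transporter, did not pass the test. Its values were 9.60, 10.16, 10.10, 10.06 and 9.90 with PF-06650833 alone and 10.14, 10.51, 10.56, 11.88 and 9.55 with IL-1β plus PF-06650833. The difference was largest in donor 4, at 1.82, and donor 5 was lower with IL-1β by 0.35 on the log2 scale. The mean log2 fold change was 0.56 (95% interval -0.19 to 1.31, limma adjusted p = 0.305).

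TAPBP, the loading factor tapasin, did not pass either. It ranged from 9.85 to 10.28 without IL-1β and from 10.05 to 11.34 with it, and the groups overlapped. Donor 4 rose by 1.37 and donor 5 differed by -0.12. The log2 fold change of 0.48 (95% interval -0.00 to 0.95) had an adjusted p of 0.168 by limma.

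PSMB9, the immunoproteasome subunit that replaces PSMB6, had the largest change among the proteasome genes of the set. Donors 1 to 5 had 5.10, 6.51, 4.91, 6.14 and 5.49 with PF-06650833 alone and 7.57, 8.41, 7.42, 9.66 and 6.56 with IL-1β plus PF-06650833. The lowest IL-1β library, donor 5 at 6.56, lay just above the highest library without IL-1β, donor 2 at 6.51. The means were 5.63 ± 0.68 and 7.93 ± 1.17 (SD, n = 5 each). The log2 fold change was 2.30 (SE 0.53, limma adjusted p = 0.0148), or 4.91-fold. The call was lost without donor 1 (log2 fold change 2.25, limma adjusted p = 0.0694).

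PSMB10, which replaces PSMB7, had 8.10, 8.51, 8.07, 8.54 and 8.02 with PF-06650833 alone and 9.18, 9.52, 9.33, 11.22 and 8.76 with IL-1β added. All 5 IL-1β libraries were above all 5 of the others. The log2 fold change was 1.35 (SE 0.38, limma adjusted p = 0.0358). This call held in 3 of the 15 fits that left out a donor or a library. Without the IL-1β library of donor 4 only the fold threshold was missed, with a log2 fold change of 0.95 and a limma adjusted p of 0.00782. In the other fits that lost the call, the log2 fold change was 1.29 to 1.51 and the limma adjusted p 0.0516 to 0.103. These fits had fewer libraries. The call for PSMB10 was thus near its thresholds and moved with the libraries included.

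PSMB8, which replaces PSMB5, had a mean change like that of PSMB10 but a wider spread. Its values were 6.83, 7.97, 6.33, 7.45 and 7.57 with PF-06650833 alone and 8.40, 8.92, 8.12, 10.76 and 6.69 with IL-1β plus PF-06650833. In 4 donors it was higher with IL-1β, by 3.31 in donor 4, and in donor 5 it was lower, with a difference of -0.89. The mean log2 fold change was 1.34 (95% interval -0.02 to 2.71, limma adjusted p = 0.174), and PSMB8 was called in none of the 27 alternatives.

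NLRC5 had 6.26, 7.49, 6.71, 5.84 and 6.83 in donors 1 to 5 with PF-06650833 alone and 7.73, 8.96, 8.18, 10.03 and 6.78 with IL-1β added. Donors 1, 2 and 3 each differed by 1.47, donor 4 by 4.19 and donor 5 by -0.05. Donor 4 had the lowest level of the group without IL-1β and the highest with it. The log2 fold change of 1.71 (SE 0.54) missed the threshold with an adjusted p of 0.054 by limma and passed it with the donor block, at 0.048. Without donor 4 it was 1.09.

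CIITA was close to the lowest value of the table without IL-1β. In normalised read counts, donors 1, 4 and 5 had 0 with PF-06650833 alone, donor 2 had 16.8 and donor 3 had 1.44. With IL-1β plus PF-06650833 the 5 donors had 6.37, 27.9, 28.8, 126 and 1.24 normalised counts. Each donor was thus higher with IL-1β, but donor 5 with IL-1β remained below donor 2 without it. The log2 fold change was 1.48 (95% interval 0.24 to 2.72) and missed the threshold by limma, with an adjusted p of 0.104, and without donor 4 it was 0.90. At such counts the transformed scale understates a change, and on log2(normalised count + 1) it was 3.07 with an adjusted p of 0.0907.

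CD74 had the largest change of the 10 genes. With PF-06650833 alone, donors 1, 3 and 5 had 0 normalised counts, donor 4 had 1.25 and donor 2 had 30.7. With IL-1β plus PF-06650833 the counts were 73.2, 254, 103, 1082 and 91.9 in donors 1 to 5. The lowest IL-1β library was above donor 2, the highest library without IL-1β. On the transformed scale the means were 3.97 ± 0.96 and 7.70 ± 1.47 (SD, n = 5 each), and the log2 fold change was 3.73 (SE 0.68, limma adjusted p = 0.00467). On log2(normalised count + 1) the difference was 6.27. CD74 was called in each of the 26 alternatives that tested it. Like CIITA, it passed the filter on low values through the 5 IL-1β libraries, since 3 of the 5 others were at 0. Its entry to the test was therefore not independent of the change. The filter that asked for reads in all 10 libraries left both genes out.

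When the 10 genes were ordered by mean difference, CD74 came first and PSMB9 second. CD74 lay above PSMB9 in 5 of 5 donors, with a mean gap of 1.44 on the log2 scale. An exact sign-flip test on 5 donors cannot give a two-sided p below 0.0625, which was its value for this gap. For every other pair of neighbours the order held in 2 to 4 of 5 donors. From NLRC5 at 1.71 through B2M, CIITA, PSMB10 and TAP1 to PSMB8 at 1.34, neighbours differed by at most 0.22, less than the spread of the donor differences. TAP2 at 0.56 and TAPBP at 0.48 were last.

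The donors differed in the size of the change in the same way for most of these genes. Donor 4 had the largest difference in 10 of 10 genes, whereas it had the largest difference in 24.2% of all tested genes and in 30.4% of the 560 genes called higher. It also had the highest level with IL-1β plus PF-06650833 in all 10, against 24.3% of all tested genes. The median difference over the 10 genes was 1.34, 1.24, 1.39, 3.15 and 0.61 in donors 1 to 5. Donor 5 had the smallest difference in 8 of 10 genes, against 22.8% of all tested genes, and was higher with IL-1β in 6 of them. CIITA and CD74 were the exceptions, in which donor 2 had the smallest difference. Donor 4 was not the highest before IL-1β: with PF-06650833 alone, donor 2 was the highest in 8 of the 10 genes and donor 4 in the other 2. These shares describe 5 horses, the genes share the same libraries, and no test was made of them.

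**Figure D2:**
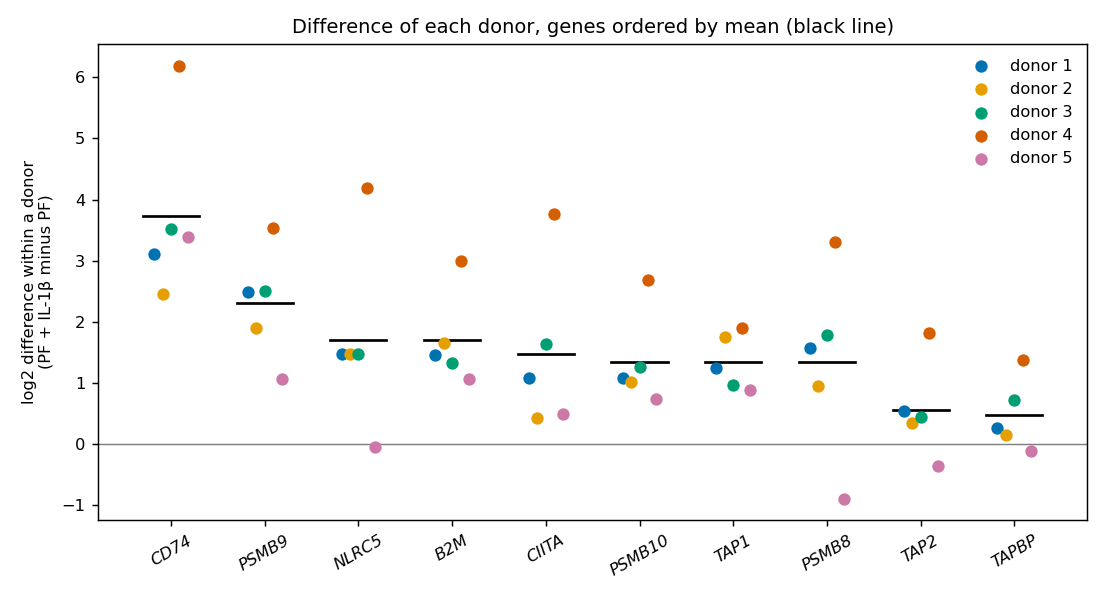
Difference in log2 expression, IL-1β plus PF-06650833 minus PF-06650833 alone, within each of the 5 donors for the 10 genes, ordered by mean difference. Donor 4 is the highest point for each gene, up to 6.19 for CD74, and donor 5 lies below 0 for NLRC5, PSMB8, TAP2 and TAPBP.

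The spread between donors was wider with IL-1β plus PF-06650833 than without IL-1β in 10 of 10 genes, against 57.2% of all tested genes. The SD of the 10 genes had a median of 0.53 with PF-06650833 alone and 1.06 with IL-1β added, where all tested genes had 0.27 and 0.30. With donor 4 left out, 5 of the 10 genes were still called higher. With donor 1 left out 1 was called and with donor 2 left out 3 were called, so the count of calls moved more with donors 1 and 2. Each of these fits had 4 libraries per group, and a lost call there need not be a smaller change. Without donor 1 the changes of CD74, B2M, PSMB10 and TAP1 were larger than over all donors, and that of PSMB9 was slightly smaller. The size of the change moved more with donor 4. Without donor 1 the log2 fold changes of CD74, PSMB9, B2M, PSMB10 and TAP1 were 3.89, 2.25, 1.76, 1.42 and 1.38. Without donor 4 they were 3.12, 1.99, 1.37, 1.02 and 1.21, each below its value over all donors.

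The next comparison asked whether each gene moved apart from its partner in the same library. On a plain log scale a scaling factor of a library cancels in such a difference. Here it cancels only in part for genes with low counts, such as PSMB9, where the scale is compressed. For each of 6 pairs, the change of the difference was tested with an exact two-sided permutation test of 5 libraries against 5, with adjustment over the 6 pairs. The smallest p this test can give is 0.00794. PSMB9 rose against PSMB6 by 2.07 on the log2 scale (exact permutation adjusted p = 0.0238) and did so in 5 of 5 donors. On log2(normalised count + 1) this change was 2.65. PSMB8 against PSMB5 changed by 0.87 (exact permutation adjusted p = 0.317), with 3.08 in donor 4 and -1.68 in donor 5. PSMB10 against PSMB7 changed by 0.94 (exact permutation adjusted p = 0.105), with 2.58 in donor 4 and at most 1.17 in the others, and it was higher in 5 of 5 donors too. Within donors, the exact sign-flip test gave PSMB9 and PSMB10 the same p of 0.0625, the smallest it can give, so the paired test passed for neither. Whether the pairs differed from each other was not tested.

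Within the transporter, TAP1 rose against TAP2. The within-library difference was -0.26 ± 0.37 with PF-06650833 alone and 0.53 ± 0.39 with IL-1β plus PF-06650833 (SD, n = 5 each), a change of 0.79 (exact permutation adjusted p = 0.0238) with the same sign in 5 of 5 donors. Donor 4 had the smallest change of this pair, at 0.09, and donor 2 the largest, at 1.40. Because transcript lengths were not used, the differences themselves do not say which chain had more transcripts.

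TAPBP fell against TAPBPL, the tapasin-related loading factor, by 0.59 on the log2 scale (exact permutation adjusted p = 0.0238), in 5 of 5 donors. TAPBPL itself was called higher, with values of 8.80, 9.45, 8.80, 8.94 and 8.78 with PF-06650833 alone and 9.64, 10.28, 9.78, 10.81 and 9.58 with IL-1β added. Its log2 fold change was 1.06 (SE 0.24, limma adjusted p = 0.0129), and it was 0.86, below the threshold of 1, without donor 4. PSME2, a subunit of the proteasome activator linked to antigen processing, rose against PSME3, a nuclear activator, by 0.64 (exact permutation adjusted p = 0.0238) in 5 of 5 donors. With any donor left out, none of these pairs passed an adjusted p of 0.05, where 4 libraries were compared with 4. The smallest p that the exact permutation test can give there is 0.0286. Pairs at that p had an exact permutation adjusted p of 0.0571 or more. These fits could therefore hardly pass, and they do not say whether a pair depended on a donor.

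**Figure D3:**
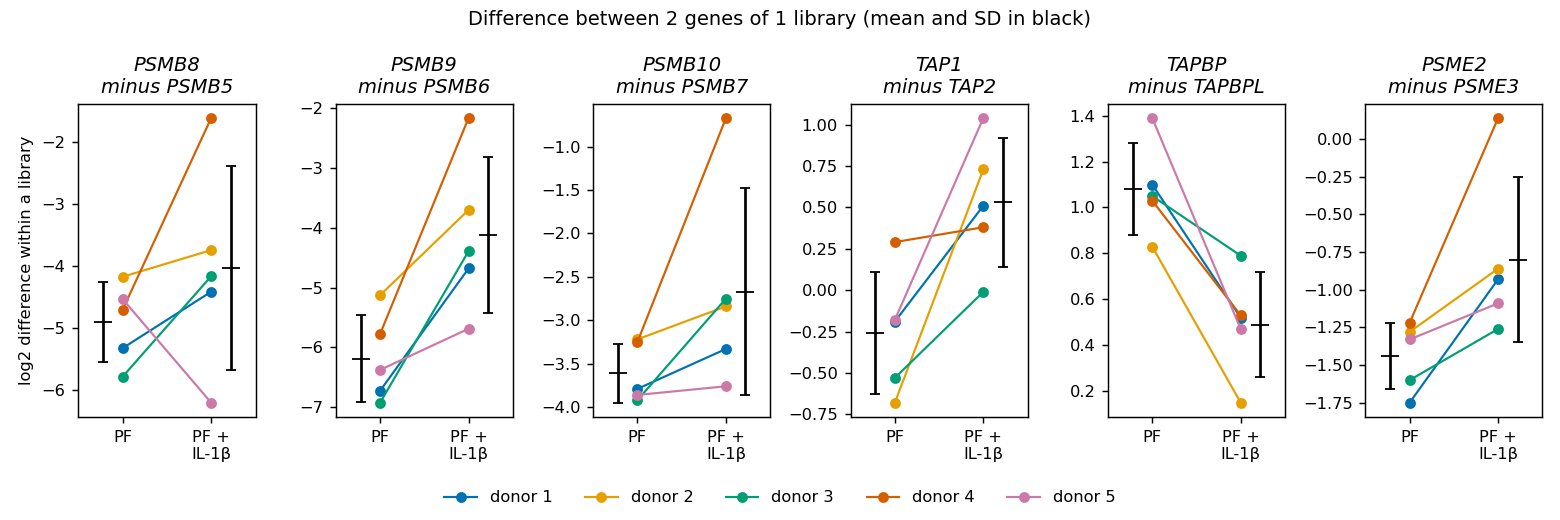
Within-library differences in log2 expression for the 6 pairs of partners, 1 panel per pair, with points for donors 1 to 5 joined within a donor and bars for the mean and SD (n = 5 per group). PSMB9 minus PSMB6, PSMB10 minus PSMB7, TAP1 minus TAP2 and PSME2 minus PSME3 are higher in the IL-1β libraries of 5 of 5 donors, and TAPBP minus TAPBPL is lower in 5 of 5.

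The other genes of the pathway were taken as lists by role, and 7 of their 99 tested members were called higher and none lower, beside 3.11% and 3.57% of all tested genes. With the donor block 7 were called higher and 1 lower. None of the constitutive catalytic subunits reached the fold threshold. PSMB5 had a log2 fold change of 0.47 and PSMB7 of 0.41, with limma adjusted p of 0.0223 and 0.0492, and PSMB6 had 0.23 with an adjusted p of 0.194. By adjusted p alone, at which 7.57% of all tested genes were higher, 11 of the 11 other subunits of the 20S core were higher, with log2 fold changes of 0.42 to 0.74, none reaching the fold threshold. The donors stood in another order there, since donor 5 had the largest difference in 9 of 11 core subunits and donor 4 in none.

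Of 9 tested activators and assembly factors, PSME1 and PSME2, which form 1 activator together, were higher by adjusted p alone, with log2 fold changes of 0.71 and 0.88 and limma adjusted p of 0.00634 and 0.0146. PSME3 had 0.24 with an adjusted p of 0.0967. Of 20 tested subunits of the 19S regulator, which admits ubiquitin-tagged proteins to the core, 3 were higher and 1 lower by adjusted p alone, at which 7.89% of all tested genes were lower, and none reached the fold threshold. Of 12 genes for peptide trimming and loading in the endoplasmic reticulum, TAPBPL was the only one called.

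**Figure D4:**
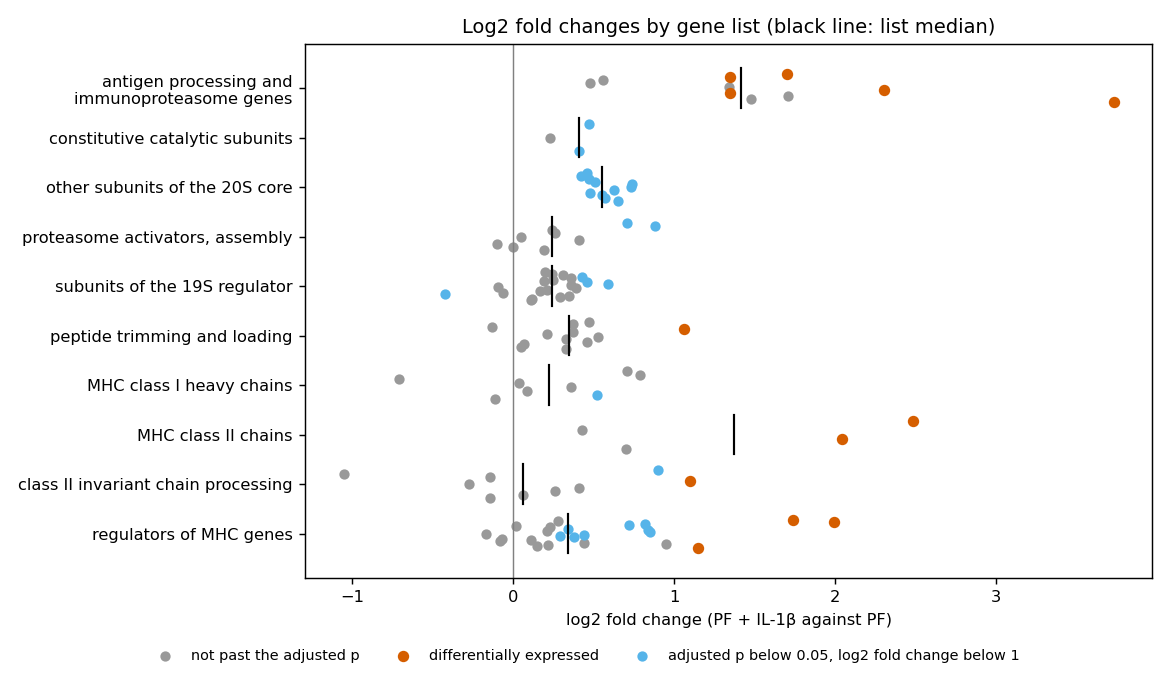
Log2 fold change of each tested gene, IL-1β plus PF-06650833 against PF-06650833 alone, by list, with a black line for each list's median and colours for the outcome of the limma test. The 10 antigen processing and immunoproteasome genes have a median of 1.41, the 20S core subunits lie between 0.42 and 0.74, and the class I heavy chains centre on 0.23.

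The MHC chains themselves were read next. None of 8 tested class I heavy chain and class I-related genes was called, and their log2 fold changes ran from -0.71 to 0.79 with a median of 0.23. EQMHCB2 and EQMHCC1, named here after their values were seen, had 0.71 and 0.79 with limma adjusted p of 0.293 and 0.141, and donor 4 had differences of 2.07 and 2.26 in them. Class I heavy chains are near-identical copies of each other that vary between horses, so the reads assigned to any 1 of them are uncertain.

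Of 4 tested class II chains, DRA and DQA were called higher. DRA, the alpha chain of the DR molecule, was at 0 reads in 4 of 5 libraries with PF-06650833 alone and at 4.81 in donor 2. With IL-1β added, donors 1 to 5 reached 5.15, 6.28, 6.01, 8.39 and 5.11. DRA thus had a log2 fold change of 2.48 (SE 0.57, limma adjusted p = 0.0146), and it too passed the filter through the IL-1β libraries. DQA had 2.04 with an adjusted p of 0.0354, and its call was lost in 10 of the 15 fits that left out a donor or a library, including those without donor 1, 2, 3 or 5 (adjusted p 0.0654 to 0.111). DRB and DQB had 0.43 and 0.70 with adjusted p of 0.819 and 0.591, and the class II genes too vary between horses and have close copies. Donor 4 had the largest difference in 4 of 4, as it had in CD74 and CIITA.

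Of 9 tested genes that process the invariant chain in the lysosome, CTSD, a lysosomal aspartic protease, was called higher with a log2 fold change of 1.10 (limma adjusted p = 0.00551), which was 0.93, below the threshold of 1, without donor 5. CTSS, the cathepsin that makes the last cuts in the invariant chain of many antigen presenting cells, had 0.90 with an adjusted p of 0.00436 and stayed under the fold threshold. CTSL had -1.05 and an adjusted p of 0.0567, and was called lower with the donor block (adjusted p = 0.0136). CTSS and CTSL were named after their values were seen.

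Of 23 tested regulators of MHC genes, NFKB1, IRF8 and IRF1 were called higher. By adjusted p alone, 11 of the 23 were higher and none lower, beside 7.57% and 7.89% of all tested genes. IRF1, a transcription factor of interferon-responsive promoters, had 9.30, 9.79, 10.14, 9.80 and 9.15 with PF-06650833 alone and 11.30, 11.73, 11.13, 12.79 and 9.93 with IL-1β added, a log2 fold change of 1.74 (SE 0.42, limma adjusted p = 0.0189). Without donor 1 or without donor 2 the adjusted p of IRF1 was 0.0908 and 0.0837. Donor 4 had the largest difference of IRF1 and donor 5 the smallest, the order seen in most of the antigen processing genes. IRF8, an interferon regulatory factor of immune cells, had 1.99 with an adjusted p of 0.00954, and NFKB1, the precursor of the p50 subunit of NF-κB, had 1.15 with an adjusted p of 4.36e-04. IFNG was too low to test, with 0 normalised counts in all libraries without IL-1β and at most 4.11 with it, and IFNB1 was at 0 in all 10 libraries.

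**Figure D5:**
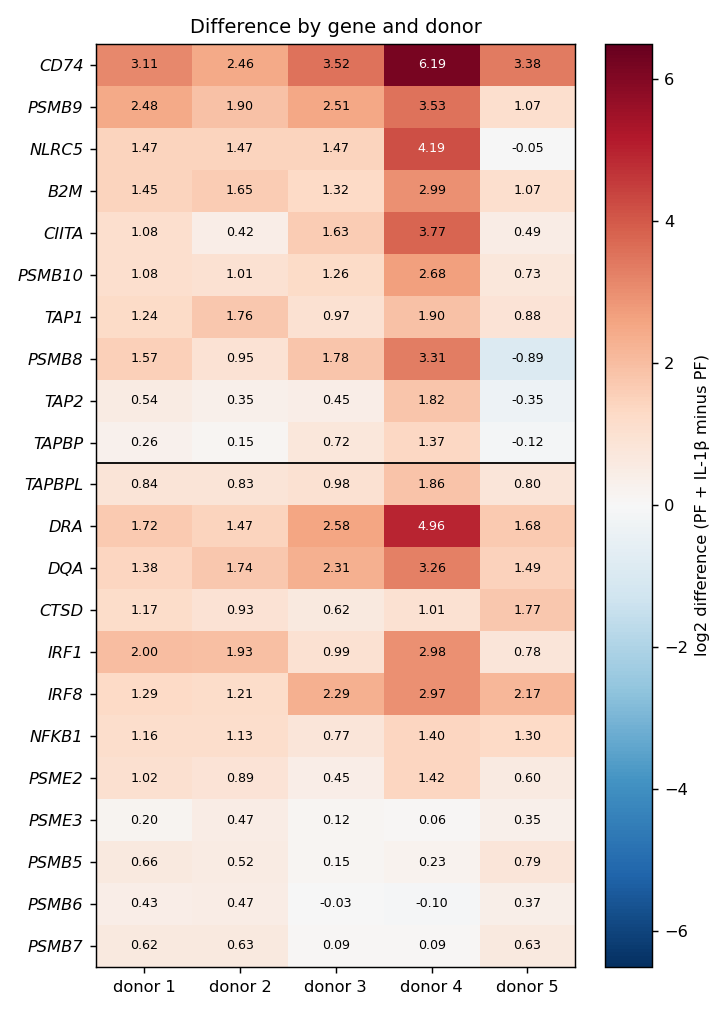
Difference in log2 expression, IL-1β plus PF-06650833 minus PF-06650833 alone, for each donor (columns) in the 10 antigen processing and immunoproteasome genes (above the line) and in the other pathway genes named by the rule (below it). The column of donor 4 is the largest of each of the upper rows, and the rows of PSMB5, PSMB6 and PSMB7 stay between -0.10 and 0.79.

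CD74, CIITA and the class II chains are best known from professional antigen presenting cells, and bulk RNA cannot tell more cells of a type from more RNA per cell. Markers of such cells were therefore counted in the same libraries. Of 10 leukocyte and macrophage markers, AIF1 and TYROBP were at 0 in all 10 libraries, PTPRC, the pan-leukocyte gene CD45, was at 0 in all libraries with IL-1β plus PF-06650833, and CSF1R did not exceed 1.14 normalised counts. CD68 was called higher, with a log2 fold change of 1.70. LAPTM5 went the other way, with -1.67 and lower values in 5 of 5 donors. It did not pass (limma adjusted p = 0.0957) but was called lower with the donor block (adjusted p = 0.0255). CD14, a monocyte and macrophage receptor, had a log2 fold change of 2.66 that did not pass (limma adjusted p = 0.34). It went from 0 reads to 8.75 on the log2 scale in donor 4 and to 10.27 in donor 5, stood at 10.72 and 10.73 in donor 1, and was at 0 reads in both libraries of donor 3. The part of these markers in the changes of CD74 and the class II genes was not tested. The summed normalised counts of this list were 89 to 1834 without IL-1β and 179 to 1948 with it, and donor 4 had 662 with it. In that library CD14 at 8.75 and CD68 at 7.96 were the highest of the list, so the sum says little about the other markers.

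Of 10 dendritic and B cell markers, CD1C, XCR1, CLEC9A, MS4A1 and CD79B were at 0 in all libraries, and the sum was 546 to 1160 without IL-1β and 431 to 707 with it, with donor 4 at the lowest of these. CD83 was the highest of the list in each library and so weighed most in the sum. It was called lower, with its largest fall in donor 4, at -2.25. FLT3 did not pass (limma adjusted p = 0.251), but with IL-1β it was highest in donor 4, at 6.61. T and NK cell markers summed to 32 to 272 and 22 to 169 normalised counts, with CD3D, CD3E, CD3G and GNLY at 0 and none called. Of 10 endothelial markers, none was at 0 in all libraries, their sum was 282 to 758 and 118 to 243, and ERG was called lower. CD68, LAPTM5, CD14, CD83, FLT3 and ERG were named after their values were seen. The labelled cell type was checked in the same way. Tendon cell markers summed to 873186 to 1443064 and 236357 to 991370 normalised counts, 3 of 8 tested were called lower with IL-1β, and TNMD, a late tendon marker, was at 0 in all 10 libraries.

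In a RefSeq gene table of another horse assembly, TB-T2T, all 10 genes were matched by symbol. TAP2, PSMB8, TAP1 and PSMB9 lay in that order with no gene between neighbours, and TAPBP was on the same chromosome. Of these neighbours TAP1 and PSMB9 were called and TAP2 and PSMB8 were not, while the mean changes of PSMB8 and TAP1 were 1.34 and 1.35. The spans of TAP1 and PSMB9 overlap in that assembly, and whether reads were assigned by strand was not given in the sources used here, so some reads of these genes could have been shared.

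For each of the 5 called genes, those with the most similar donor differences among 13855 other tested genes with a symbol were found by the root mean square distance over the 5 donors. For B2M they were GLUL, DDX58 and PDE4D, at distances of 0.23, 0.25 and 0.25 on the log2 scale. For TAP1 they were FIGNL2, ITPKB and GLCCI1, at 0.25, 0.28 and 0.30. PSMB9 was closest to IL15RA at 0.26, followed by EDNRA at 0.39 and ASTN2 at 0.47. PSMB10 was closest to PI15 at 0.24, PDE7B at 0.27 and ISG15 at 0.33. CD74 had no gene as close, with RSAD2 at 0.71, PLXNC1 at 0.76 and GPRC5A at 0.87. The distance is not scaled to the size of a change, and CD74 had the largest changes, so its distances are not comparable with the others. The distances rest on 5 donors and describe these libraries.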

How the data were processed

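RNA was sequenced from 10 libraries, 5 with PF-06650833 alone and 5 with IL-1β plus PF-06650833. Reads were checked by the authors with FastQC (0.11.9), quantified with Salmon (1.8) on the EquCab 3.0 transcriptome with GC bias correction, and imported with tximport for DESeq2 (1.36). The authors deposited log2 values, recognised from the values themselves as variance-stabilized. Their lowest value, 3.433, was read as 0, and the transformation was inverted to give normalised read counts. Raw counts per library were not used here, so no counting intervals are given.

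Genes with reads in 5 or more of the 10 libraries were fitted with limma (3.58.1, R 4.3.3) with a mean-variance trend and no donor term. The authors tested with DESeq2, which needs raw counts, and their test was not repeated. The study's methods state no donor term, and their thresholds were kept. Donors 1 to 5 are the tenocyte lines named in the labels, and libraries of 1 line come from 1 horse. A fit with the line as a block, the replicate block, was therefore run too. Deviations from the group means correlated at 0.367 to 0.506 within lines and at -0.266 to 0.0869 between lines. Pairs of genes were compared with exact permutation and sign-flip tests (scipy 1.17.1).

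The members, lists and tests were chosen with earlier results of these data known. Genes named were the 10 members, both genes of each pair, IRF1, up to 4 called genes per list by adjusted p, and the 3 nearest genes of each called member. One item of the lists is not reported here. Alternatives changed the filter, scale, normalization, variance model, thresholds and libraries.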

Additional observations from a re-analysis of the deposited data

Results flagged for a closer look

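In 4 of 44 groups of 5 libraries tested, the highest library stood apart from the others by Dixon's criterion, where chance flags about 1 in 20. That rate does not hold where libraries are tied at the lowest value. With PF-06650833 alone this was so in 4 of 5 libraries for DRA and in 3 of 5 for CD74. With PF-06650833 alone, donor 2 was at 5.64 for CD74 on the log2 scale, against 3.43 to 3.92 in the other donors. The same library was at 4.81 for DRA, against 3.43 in all others, and at 9.45 for TAPBPL, against 8.78 to 8.94. For DQA with IL-1β plus PF-06650833, donor 4 was at 8.36 against 4.93 to 5.88. What sets these libraries apart was not tested.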

How the results depend on the processing

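No named gene or pair reversed its direction under any alternative. In the list of invariant chain processing genes, the 1 call was higher (CTSD), and without the PF-06650833 alone library of donor 5 it was 1 lower. The count of antigen processing and immunoproteasome genes called, 5, ranged from 1 to 6 when a donor or library was left out, the lowest without donor 1, and was 1 (CD74) at an adjusted p below 0.01. The count over the pathway lists, 7, ranged from 5 to 10 when a donor or library was left out, was 3 at an adjusted p below 0.01, and was 36 with no minimum fold change. With the replicate block the counts were 6 and 8, and with the block on log2(normalised count + 1), chosen after seeing the data, they were 7 and 9, with CIITA called (adjusted p = 0.0416).

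For the pairs, the sign-flip test within donors, the replicate block for these, cannot give a p below 0.0625, and so PSMB9 minus PSMB6 (2.07), TAP1 minus TAP2 (0.79), TAPBP minus TAPBPL (-0.59) and PSME2 minus PSME3 (0.64) no longer passed. With a donor or library left out, they ranged over 1.58 to 2.46, 0.63 to 0.96, -0.67 to -0.50 and 0.40 to 0.75. PSMB8 minus PSMB5 ranged over 0.27 to 1.51 and PSMB10 minus PSMB7 over 0.44 to 1.21, and both passed without the IL-1β library of donor 5. Of 37 named genes under up to 27 alternatives each, 904 outcomes stayed as they were, 78 calls were lost and 12 were gained. The 904 include genes that stayed uncalled, such as TAP2, so they do not measure how stable a call was. PSMB10, for example, was called in 14 of 27 alternatives. Why calls moved was not tested.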
